A study of Homo sapiens with 4 samples.

Results

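The genes described here are 32 genes of glycolysis and of the cell's response to low oxygen, followed through siRNA knockdown of KLF7, a zinc finger transcription factor, in HCE cells. HCE is a human corneal epithelial line, labelled undifferentiated, and was grown in Occulife medium. Wells of a 12-well plate were seeded with 100000 cells each and transfected at 20 nM, either with a pool of non-targeting control siRNAs (scramble control) or with a pool of siRNAs against KLF7 (siKLF7), and were collected 48 hours later. There were 2 arrays per group. The scramble control arrays are called control 1 and control 2, and the knockdown arrays siKLF7 replicates 1 and 2. The genes were taken by name, and 29 of the 32 had an array feature with that single gene symbol, among 18417 genes measured in all. PGAM1 was present only on features shared with its near copy PGAM4. PGAM1, SLC16A3 and CA9 are not analysed here. The measured genes fall into 16 core enzymes of glycolysis, 5 genes of transport and flux control, and 8 hypoxia targets.

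Glycolysis splits glucose into pyruvate in the cytosol and yields ATP without oxygen. Lactate dehydrogenase then turns pyruvate into lactate, which regenerates the NAD needed upstream. When oxygen falls, the hypoxia-inducible factor (HIF), a dimer of an oxygen-regulated alpha subunit and ARNT, accumulates and raises transcription of many glycolytic genes and of genes for blood vessel growth, mitophagy and oxygen sensing. HIF binds DNA at sites with the core letters ACGTG or GCGTG. The corneal epithelium has no blood vessels, stores glycogen and draws much of its energy from glycolysis.

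The arrays were not alike within the control group. Control 1 correlated across genes with the other 3 arrays at 0.934 to 0.938, while those 3 correlated with each other at 0.990 to 0.994. Of 9 measured corneal epithelial markers, 8 were lowest in control 1, where KRT3 had a signal of 0.0063 and KRT12 of 67.7 against 1440.4 to 3136 for both genes in the other arrays. KRT5 and KRT14, keratins of basal epithelium, were bright in all 4 arrays. The summed signal of the corneal markers was 25924 and 35058 in the controls and 38803 and 41517 in the siKLF7 arrays. Of the fibroblast and keratocyte markers, summed at 4339 and 2453 in the controls and 2965 and 2839.6 in the siKLF7 arrays, POSTN and THY1 were at least 2-fold higher in control 1 than the mean of the others. Summed vascular endothelial, leukocyte and melanocyte markers ranged from 1348 to 1479.7, 1636 to 1965 and 427 to 436 in the controls, and from 1164 to 1244, 1473 to 1485 and 365 to 428 in the siKLF7 arrays. Against control 2 the median log2 differences of these 3 lists were -0.19, 0.01 and -0.03, where all genes had -0.04. The corneal markers had a median of 0.27 and ran from -0.03 to 0.85, with 7 of 9 positive, KRT3, KRT12, KRT15 and ALDH3A1 among them. Both knockdown arrays lay above control 2 for 7 of these 9 markers, and for 29.7% of all genes. Control 2 and the knockdown arrays were thus not alike in corneal markers either. The fibroblast and keratocyte markers had a median of -0.11 and ran from -0.29 to 0.86. Of these, 6 of 10 were negative and 4 positive, LUM and POSTN among the latter. The part of cell makeup in the results below was not tested, and in bulk RNA fewer cells of a type and less RNA per cell cannot be told apart. Differences are therefore given against control 2 and, for most genes, against control 1, and the fit with all 4 arrays is given by its counts and for single genes.

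The targeted gene was checked first. The KLF7 signal was 4649 in control 1 and 2911 in control 2, and 1492 and 1122 in siKLF7 replicates 1 and 2. Both knockdown arrays lay below both controls. With limma, KLF7 fell to 44.8% of control 2 (log2 -1.16, SE 0.13, adjusted p = 2e-09) and to 28.1% of control 1 (log2 -1.83, SE 0.13, adjusted p = 2.7e-22). With all 4 arrays the signals were 3780 ± 1229 and 1307 ± 262 (SD, n = 2 per group). In that fit KLF7 stood at 35.5% of the controls (SE of the log2 difference 0.28, limma unadjusted p = 0.0040, adjusted p = 0.64). The value of 0.64 was the smallest adjusted p of any gene with all 4 arrays.

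Over the 3 arrays other than control 1, the range of a core enzyme's level had a median of 0.12 on the log2 scale and reached 0.32 (ENO2). The median over all genes was 0.22. Most core enzymes had signals far above the array medians, and the part of brightness in this range was not tested. Against control 2, 0 of the 29 genes passed with limma, and 4 (GPI, VEGFA, BNIP3 and EGLN3) had an unadjusted p under 0.05. Among all genes, 1.57% passed (0.89% higher and 0.679% lower) and 2074 had an unadjusted p under 0.05. With all 4 arrays, 0 of 29 members passed and 0 had an unadjusted p under 0.05, as against 0% of all genes passing and 1070 genes with an unadjusted p under 0.05. In that fit the 29 differences ran from -0.21 (PFKP) to 2.38 (EGLN3) on the log2 scale, with 0.57 (SE 0.48) for HK2, 0.61 (SE 0.44) for NDRG1, 0.07 (SE 0.25) for VEGFA and 0.0041 (SE 0.32) for BNIP3. Against control 1, 13 of 29 genes rose and 0 fell, where 13.4% of all genes rose and 13.4% fell, 26.8% together. In the fits against a single control, the spread came from the siKLF7 pair and from the other genes, on the assumption that a lone control varies like them. Nothing in the labels tells whether the arrays of a group came from independent wells or experiments. The p-values therefore cover the spread among these arrays alone, and that spread may be technical. No exact permutation test of 2 arrays against 2 can give a two-sided p below 0.333.

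**Figure D1:**
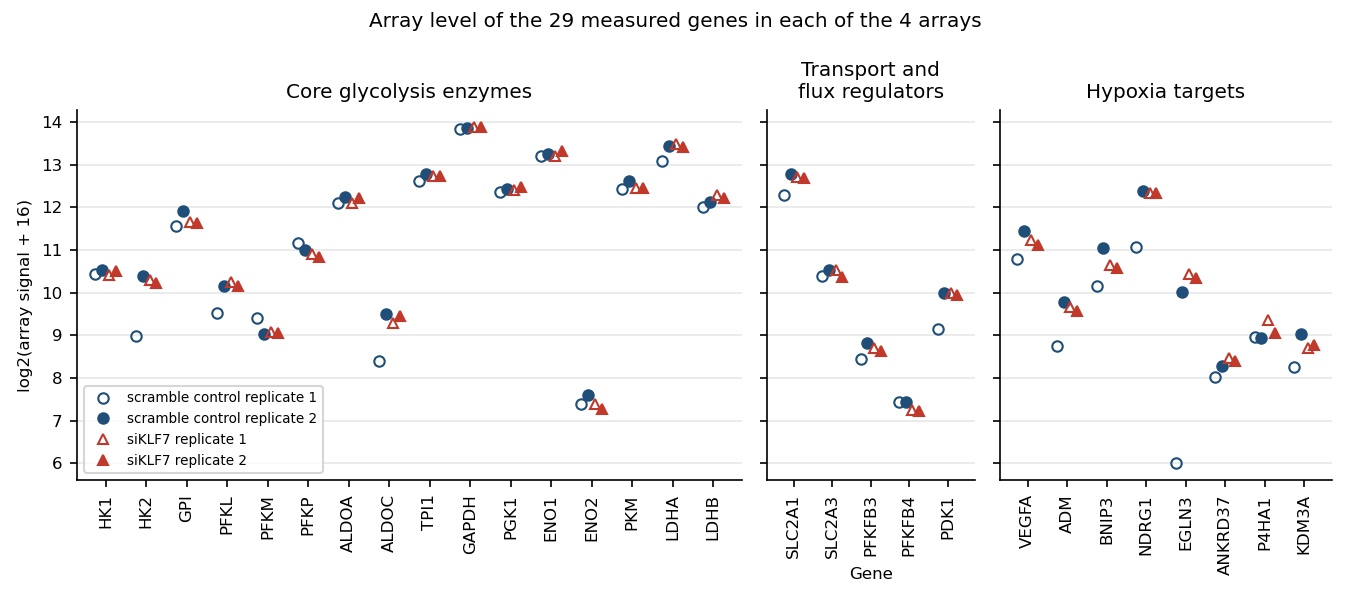
Array level as log2(signal + 16) for each of the 29 measured genes, with open circles for control 1, filled circles for control 2, and open and filled triangles for siKLF7 replicates 1 and 2. The open circle lies lowest for 21 of the 29 genes, farthest for EGLN3 at 6.01, while the other 3 symbols lie close together for most core enzymes. Heights compare arrays for 1 gene and do not rank genes against each other.

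Glucose enters the cell through SLC2A1 and SLC2A3, the GLUT1 and GLUT3 transporters. The SLC2A1 signal was 5031 in control 1, 7079 in control 2, and 6660 (replicate 1) and 6561 (replicate 2) after KLF7 knockdown. Control 1 stood apart and the knockdown arrays lay between the controls. SLC2A1 rose by 0.39 (log2, SE 0.08, adjusted p = 1.8e-05) against control 1 and differed by -0.10 (SE 0.07, adjusted p = 0.64) from control 2. SLC2A3 differed by -0.08 (SE 0.14) from control 2 and by 0.05 (SE 0.14) from control 1, and passed against neither.

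Hexokinases trap glucose in the cell as glucose 6-phosphate. HK1, the constitutive form, had signals of 1378 and 1469 in the controls and 1357 and 1441 in the siKLF7 arrays, and the groups overlapped. HK2, the inducible form and a HIF target, had signals of 492 in control 1, 1328 in control 2, and 1236 and 1179 in the siKLF7 arrays. HK2 rose 2.41-fold against control 1 (log2 1.27, SE 0.15, adjusted p = 3e-11), but control 2 itself lay 2.65-fold above control 1. Against control 2 the HK2 difference was -0.14 (SE 0.14, adjusted p = 0.74). GPI, the next enzyme, which isomerises the sugar, was 1 of the 4 members with an unadjusted p under 0.05 against control 2. Its signals were 3029 and 3819 in the controls and 3203 and 3143 in the siKLF7 arrays, which overlap, and its difference was -0.27 (SE 0.10, adjusted p = 0.23) from control 2 and 0.07 (SE 0.10, adjusted p = 0.68) from control 1.

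Phosphofructokinase commits the sugar to glycolysis, and its 3 subunit genes did not follow each other across the arrays. PFKL, the liver-type subunit, had signals of 716 in control 1, 1133 in control 2, and 1206 and 1126 in the siKLF7 arrays. It rose by 0.69 (SE 0.15, adjusted p = 0.00011) against control 1 and differed by 0.04 (SE 0.14) from control 2. PFKM, the muscle-type subunit, was instead highest in control 1, at 665 against 504 in control 2 and 528 and 514 in the siKLF7 arrays, and its difference of -0.34 (SE 0.16, adjusted p = 0.11) from control 1 did not pass. PFKP, the platelet-type subunit, was also highest in control 1, at 2280.3 against 2028 in control 2 and 1900.2 and 1817 in the siKLF7 arrays. PFKP lay below both controls in both knockdown arrays, with differences of -0.12 (SE 0.12) from control 2 and -0.29 (SE 0.12, adjusted p = 0.062) from control 1. The difference from control 1 passed after median centring (adjusted p = 0.024) or after the dimmest 25% of genes were dropped (adjusted p = 0.0497).

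The middle and lower steps of the pathway are run by abundant housekeeping enzymes. GAPDH, which oxidises glyceraldehyde 3-phosphate, had signals of 14690.2 and 14865 in the controls and 15015 and 15109 in the siKLF7 arrays, and differed by 0.02 (log2, SE 0.05) from control 2. Both GAPDH values lay above both controls, but by less than the test's error. With quantile normalization the difference of GAPDH from control 1 was 0.16 instead of 0.04, so its size depended on the scaling. That from control 2 was -6.7e-15 instead of 0.02, which is nil within rounding. Quantile normalization gives genes of equal rank the same value, so this nil is not a measured equality. PGK1, the first ATP-making step, stood at 5242, 5544, 5464 and 5661 in the order control 1, control 2, siKLF7 replicates 1 and 2. ENO1, the main enolase of epithelial cells, stood at 9400.3, 9779, 9361 and 10160 in the same order. The groups overlapped for both genes, and their differences from control 2 were 0.0045 (SE 0.08) and -0.0039 (SE 0.06). Differences from control 2 were also within 1 SE of 0 for TPI1, the triose isomerase, at -0.04 (SE 0.07), and for ALDOA, an aldolase, at -0.08 (SE 0.09). TPI1 had 2 features, and both had control 1 as their lowest array. PKM, a pyruvate kinase gene, differed by -0.16 (SE 0.08) from control 2 and 0.02 (SE 0.08) from control 1, and passed against neither.

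The isozymes best known from brain behaved differently from each other. ALDOC, the brain aldolase, had signals of 321 in control 1, 709 in control 2, and 614 and 682 in the siKLF7 arrays. It rose 1.97-fold against control 1 (adjusted p = 7.4e-07) and differed by -0.13 (SE 0.16) from control 2. ENO2, the neuronal enolase, had signals of 153 and 177 in the controls and 152.6 and 138 in the siKLF7 arrays. Its values lay below both controls by a narrow gap, and it differed by -0.26 (SE 0.16, adjusted p = 0.56) from control 2.

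Lactate dehydrogenase closes the pathway. LDHA, the subunit that favours lactate formation, had signals of 8691 in control 1, 11122 in control 2, and 11527 and 10920.5 in the siKLF7 arrays. Control 1 was the low array and control 2 lay within the knockdown pair. LDHA rose by 0.37 (SE 0.06, adjusted p = 2.7e-07) against control 1 and differed by 0.01 (SE 0.06, adjusted p = 0.95) from control 2. LDHB, the subunit that favours the reverse reaction, had signals of 4091 and 4434 in the controls and 4985 and 4726 in the siKLF7 arrays, so both knockdown arrays were above both controls. It rose by 0.25 (SE 0.09, adjusted p = 0.025) against control 1 and differed by 0.13 (SE 0.09, adjusted p = 0.60) from control 2. The LDHB call against control 1 was lost with median centring (adjusted p = 0.055). The calls of LDHB, LDHA, SLC2A1 and VEGFA against control 1 were lost with no intensity trend in the prior (adjusted p = 0.25, 0.077, 0.058 and 0.054).

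The core enzymes as a list had a median log2 difference of -0.06 against control 2, where all genes had -0.04. Against control 1 their median was 0.06 and that of all genes -0.06. Their differences from control 2 ran from -0.27 for GPI to 0.13 for LDHB. The median size of the difference, ignoring sign, was 0.07, as against 0.14 over all genes and 0.28 for the hypoxia targets. Most core enzymes were bright, and the SE against control 2 was 0.05 for the bright GAPDH and 0.16 for the dim ENO2. The part of brightness in these sizes was not tested. With 4 arrays the median of the core enzymes was 0.03, and control 1 lay 0.15 below control 2 by list median.

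Genes that set the flux into and out of glycolysis were measured beside the enzymes. PFKFB3 and PFKFB4 make and remove fructose 2,6-bisphosphate, the activator of phosphofructokinase. PFKFB3 differed by -0.14 (SE 0.16) from control 2 and 0.22 (SE 0.16) from control 1. PFKFB4 stood at 156 and 158 in the controls and 136 and 133 in the siKLF7 arrays. Both knockdown arrays were below both controls, by 0.21 (SE 0.16, adjusted p = 0.64) against control 2, and the difference did not pass. PDK1 is a kinase that switches off pyruvate dehydrogenase. Its signal was 549 in control 1, 1010.5 in control 2, and 997 and 968 in the siKLF7 arrays. It rose 1.77-fold against control 1 (adjusted p = 9.2e-06) and differed by -0.04 (SE 0.15, adjusted p = 0.93) from control 2. Of the 5 genes of this list, 4 had both knockdown arrays below control 2, where 44.6% of all genes did. The list median was -0.10 against control 2, 0.22 against control 1 and 0.04 with 4 arrays.

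**Figure D2:**
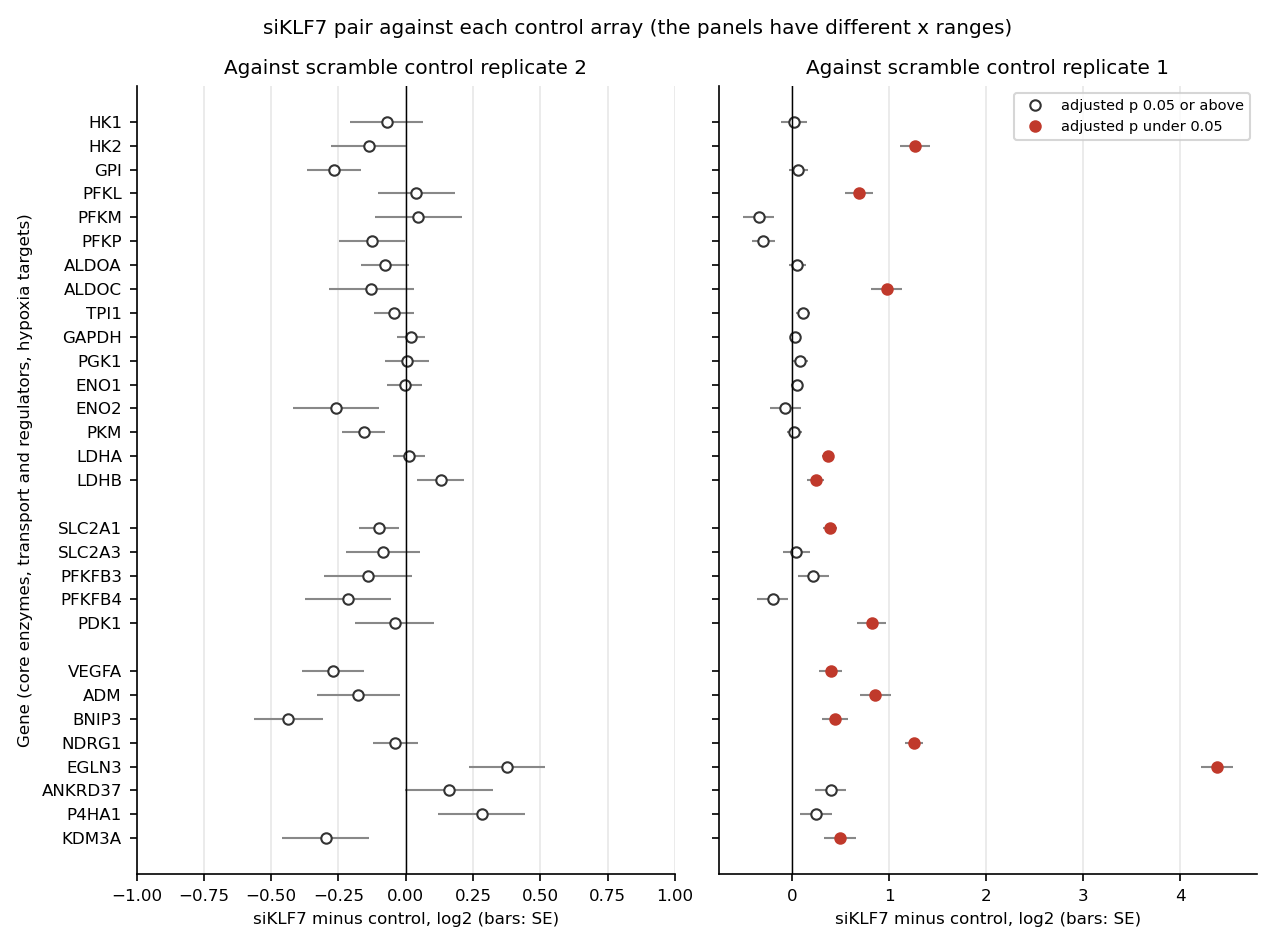
Log2 difference of the siKLF7 pair from control 2 (left) and from control 1 (right) for the 29 genes, with bars of 1 SE and filled points for an adjusted p under 0.05. On the left, 0 points are filled and the genes lie between -0.44 and 0.38; on the right, on a wider axis, 13 are filled and EGLN3 lies at 4.38.

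Of the 3 groups of genes, the hypoxia targets outside the pathway had the widest gap between the controls, with control 1 lower by 0.84 by list median, as against 0.15 for the core enzymes and 0.36 for transport and flux genes. EGLN3 encodes PHD3, a prolyl hydroxylase that marks HIF alpha subunits for destruction and is itself induced by HIF. Its signal was 48.3 in control 1, 1014 in control 2, and 1369 and 1275 in siKLF7 replicates 1 and 2. The signal in control 1 was far below the rest, and both knockdown arrays lay above both controls. On the scale of log2(signal + 16), EGLN3 rose by 4.38 against control 1 (SE 0.16, adjusted p = 8.5e-40). The signal of control 1 lay below that array's median of 187, and the size of this difference depends on the pseudocount: it was 4.74 with 1 and 3.62 with 64. Its difference from control 2 was 0.38 (SE 0.14, adjusted p = 0.22), and with 4 arrays it was 2.38 (SE 1.32, adjusted p = 0.64).

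NDRG1, a stress and differentiation gene induced by hypoxia, and ADM, the vasodilator peptide adrenomedullin, shared the low value in control 1. The NDRG1 signal was 2150.1 in control 1, 5299 in control 2, and 5147 and 5172 in the siKLF7 arrays. It rose 2.39-fold against control 1 (adjusted p = 1.1e-20), and differed by -0.04 (SE 0.08) from control 2. ADM stood at 416 and 869.6 in the controls and 795 and 742 in the siKLF7 arrays. It rose 1.81-fold against control 1 (adjusted p = 8e-06) and differed by -0.18 (SE 0.15, adjusted p = 0.69) from control 2.

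Like NDRG1 and ADM, the genes BNIP3, VEGFA and KDM3A lay between the controls, higher than control 1 and lower than control 2. BNIP3, a mitochondrial protein that promotes mitophagy, had signals of 1131 in control 1, 2098 in control 2, and 1589 and 1503 in the siKLF7 arrays. It stood at 73.9% of control 2 (log2 -0.44, SE 0.13, adjusted p = 0.064), the smallest p of the 29 genes in that comparison, and rose by 0.45 (SE 0.14, adjusted p = 0.0081) against control 1. The difference from control 2 did not pass, but it did after quantile normalization (adjusted p = 0.013), after median centring (0.042) or once the dimmest 25% of genes were dropped (0.033). VEGFA, the vascular growth factor, had signals of 1742 and 2785 in the controls and 2402 and 2215 in the siKLF7 arrays. VEGFA differed by -0.27 (SE 0.11, adjusted p = 0.32) from control 2 and rose by 0.40 (SE 0.12, adjusted p = 0.0064) against control 1. KDM3A, a histone H3 lysine demethylase induced by HIF, stood at 288 and 509 in the controls and 401 and 422 in the siKLF7 arrays. KDM3A differed by -0.30 (SE 0.16, adjusted p = 0.50) from control 2 and rose by 0.49 (SE 0.16, adjusted p = 0.016) against control 1.

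Of the hypoxia targets, 2 others lay, like EGLN3, above both controls in both knockdown arrays. P4HA1, a collagen prolyl hydroxylase subunit, had signals of 483 and 471 in the controls, close together, and 643 and 516 in the siKLF7 arrays. The gap between the knockdown arrays was the widest of the 29 genes, 0.31 on the log2 scale, and the differences of 0.28 (SE 0.16) from control 2 and 0.25 (SE 0.16) from control 1 did not pass. ANKRD37, an ankyrin repeat protein, had signals of 246 and 293 in the controls and 336 and 323 in the siKLF7 arrays. Its differences were 0.16 (SE 0.16) from control 2 and 0.40 (SE 0.16, adjusted p = 0.059) from control 1.

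Promoters were read because HIF sites mark many of these genes. RefSeq windows of 300 bases on GRCh38.p14, from 250 before to 50 after the start site, were used. Windows were counted for 29 of the 32 genes, matched by symbol, and none was counted for SLC2A3, VEGFA and NDRG1. ACGTG was found on either strand in 12 of these 29 windows (8 of 17 core enzymes, 0 of 5 transport and flux genes, 4 of 7 hypoxia targets) and in 21.4% of 35116 promoter windows. GCGTG was found in 14 of 29 and 36.5%, CACCC in 23 of 29 and 59.9%, and GGGCGG, a GC box, in 22 of 29 and 44.95%. The last 2 are letters that the KLF family is known to bind. A match is a description of letters and not of a bound site. The windows of BNIP3 (chr10:131981874-131982173, minus strand) and P4HA1 (chr10:73096817-73097116, minus strand) are shown. These genes are the hypoxia targets among the windows that qualified by the rule given with the processing. Capitals mark ACGTG or its reverse complement, and the palindrome CACGTG in BNIP3 counts on each strand. In the order of transcription, 5′ to 3′:
BNIP3: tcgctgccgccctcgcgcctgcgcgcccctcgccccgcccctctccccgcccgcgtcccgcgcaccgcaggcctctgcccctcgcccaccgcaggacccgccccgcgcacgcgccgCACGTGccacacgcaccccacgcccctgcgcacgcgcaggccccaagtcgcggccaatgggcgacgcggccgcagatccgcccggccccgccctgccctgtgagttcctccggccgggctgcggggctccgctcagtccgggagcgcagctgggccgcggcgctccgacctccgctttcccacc
P4HA1: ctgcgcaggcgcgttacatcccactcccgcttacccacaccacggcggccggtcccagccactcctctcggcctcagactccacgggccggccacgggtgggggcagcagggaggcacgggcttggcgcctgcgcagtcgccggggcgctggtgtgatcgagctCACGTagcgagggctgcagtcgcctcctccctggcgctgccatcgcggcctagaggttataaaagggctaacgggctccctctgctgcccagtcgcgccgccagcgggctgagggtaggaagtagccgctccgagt

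The hypoxia targets as a list had a median of -0.11 against control 2, of 0.47 against control 1 and of 0.27 with 4 arrays, where all genes had -0.04, -0.06 and -0.05. Without control 1 the sign of the list median therefore turned. Of the 8 genes, 8 had a positive log2 difference from control 1, as had 7928 of all 18417 genes. From control 2 the difference was positive for 3 of the 8, and for 7770 of all genes. Both knockdown arrays lay above control 2 for 3 and below it for 5. Over all 29 genes, both knockdown arrays lay above both controls for 5 (EGLN3, P4HA1, ANKRD37, LDHB and GAPDH; 16.3% of all genes) and below both for 3 (PFKP, ENO2 and PFKFB4; 28.9% of all genes). That is 8 of 29, as against 45.2% of all genes on either side. Both knockdown arrays lay above control 2 for 6 of the 29 (29.7% of all genes) and below it for 18 (44.6% of all genes). Control 1 was the lowest array for 21 of 29 genes and for 31.4% of all genes, and the highest for 2 of 29 and for 38.3% of all genes. It was at least 2-fold below the mean of the others for 4 members (HK2, ALDOC, NDRG1 and EGLN3) and for 3% of all genes. It was at least 2-fold above that mean for 0 members and for 2.12% of all genes.

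HIF1A, the gene of the main oxygen-regulated subunit, was lower in the knockdown arrays whichever control was used. Its signal was 5898 in control 1, 5746 in control 2, and 4472 and 4108 in siKLF7 replicates 1 and 2. The controls lay close together and both knockdown arrays were below both. HIF1A fell to 74.7% of control 2 (log2 -0.42, SE 0.09, adjusted p = 0.0016) and to 72.8% of control 1 (log2 -0.46, SE 0.09, adjusted p = 9.1e-06). With 4 arrays the log2 difference was -0.44 (SE 0.10) and did not pass (limma unadjusted p = 0.0089, adjusted p = 0.64, the smallest of any gene in that fit). The call against control 2 was lost with no intensity trend in the prior (adjusted p = 0.27). HIF protein was not measured.

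HIF1A was the only gene among 11 measured in the list of HIF subunits, oxygen sensors and cofactors to pass against control 2, where 0.679% of all genes fell. EPAS1, the HIF-2 alpha subunit, and ARNT, the shared partner, did not pass against control 2, and ARNT differed by -0.06 (SE 0.15) from control 2 and -0.14 (SE 0.15) from control 1. ARNT2 differed by -0.30 (SE 0.16) and HIF1AN, the asparagine hydroxylase that restrains HIF, by -0.29 (SE 0.16) from control 2. HIF1AN rose by 0.70 (SE 0.17, adjusted p = 0.00053) and CITED2, a HIF-induced inhibitor of HIF, by 1.38 (SE 0.13, adjusted p = 8.3e-15) against control 1. CITED2 had signals of 751 and 2057 in the controls and 2061 and 1914 in the siKLF7 arrays. In this list both knockdown arrays lay below control 2 for 10 of 11 genes, against 44.6% of all genes, and the list median was -0.09. Against control 1, 3 of the 11 genes rose and 1 fell, where 13.4% of all genes rose and 13.4% fell.

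**Figure D3:**
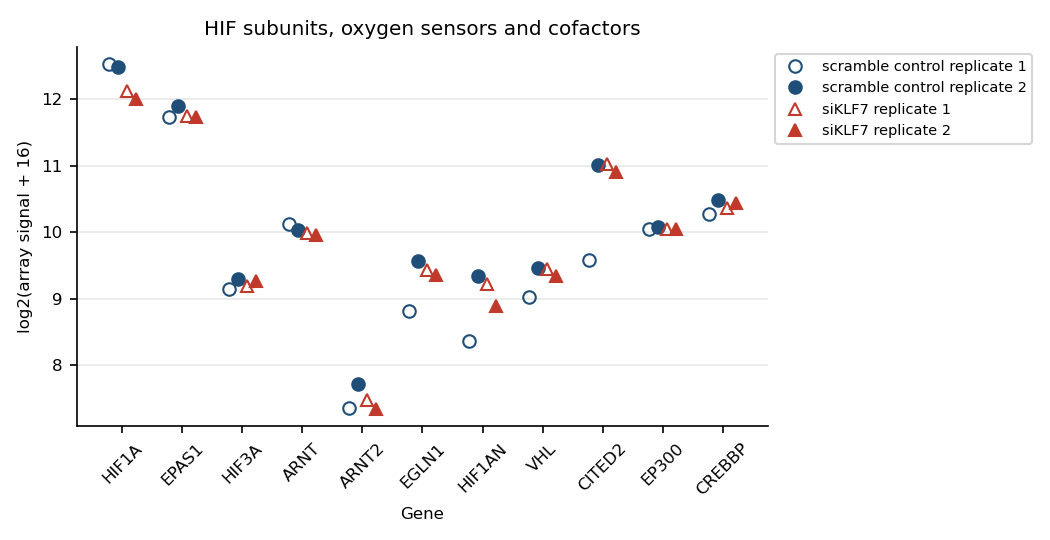
Array level as log2(signal + 16) for 11 genes of HIF subunits, oxygen sensors and cofactors, with circles for the controls (open for control 1) and triangles for the siKLF7 replicates. For HIF1A the circles lie close together and both triangles lie clearly below them, and for HIF1AN and CITED2 the open circle of control 1 is low.

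Further hypoxia targets, 24 of 25 listed genes, had 8 positive and 16 negative differences from control 2, where all genes had 7770 and 10647. Against control 1, 9 rose and 4 fell, where 13.4% of all genes rose and 13.4% fell. Their median differences were -0.04 and 0.09, where all genes had -0.04 and -0.06. STC2, a secreted glycoprotein of stressed cells, had the smallest p of this list against control 2, at 71.0% of it (log2 -0.49, SE 0.15, adjusted p = 0.084), and rose by 0.78 (SE 0.16, adjusted p = 5.1e-05) against control 1. DDIT4, an inhibitor of mTORC1, and LOX, a collagen cross-linking oxidase, differed by -0.25 (SE 0.11) and -0.34 (SE 0.16) from control 2 without passing, and rose by 0.58 and 0.78 against control 1 (adjusted p = 1.8e-05 and 7.7e-05). ANGPTL4, a lipase inhibitor, ran the other way, with signals of 501 in control 1, 189 in control 2, and 171 and 156 in the siKLF7 arrays. ANGPTL4 fell by 1.53 (SE 0.16, adjusted p = 3.9e-13) against control 1 and differed by -0.19 (SE 0.16) from control 2. EPO, the kidney hormone erythropoietin, and CXCR4, a chemokine receptor, differed by -0.33 (SE 0.16) and -0.18 (SE 0.16) from control 2.

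The fate of pyruvate was followed with 12 of 13 listed genes of its entry into mitochondria. Against control 1, 2 rose and 1 fell, as against 13.4% of all genes each way. Their median difference from control 2 was 0.05, where all genes had -0.04. PDK2, a kinase of the same family as PDK1, had signals of 282 and 539 in the controls and 704 and 637 in the siKLF7 arrays, above both controls. It rose 2.30-fold against control 1 (log2 1.20, SE 0.16, adjusted p = 2.6e-09) and differed by 0.31 (SE 0.16, adjusted p = 0.47) from control 2. PDP1, the phosphatase that switches pyruvate dehydrogenase back on, had signals of 3419 and 2390.5 in the controls and 1967 and 2027 in the siKLF7 arrays, below both controls. It fell by 0.77 (SE 0.11, adjusted p = 3e-08) against control 1 and differed by -0.26 (SE 0.12, adjusted p = 0.38) from control 2. PDK4 lay below both controls too, by 0.31 (SE 0.16, adjusted p = 0.45) against control 2. PDHB, named after its value was seen, was the other gene of the list that rose against control 1.

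**Figure D4:**
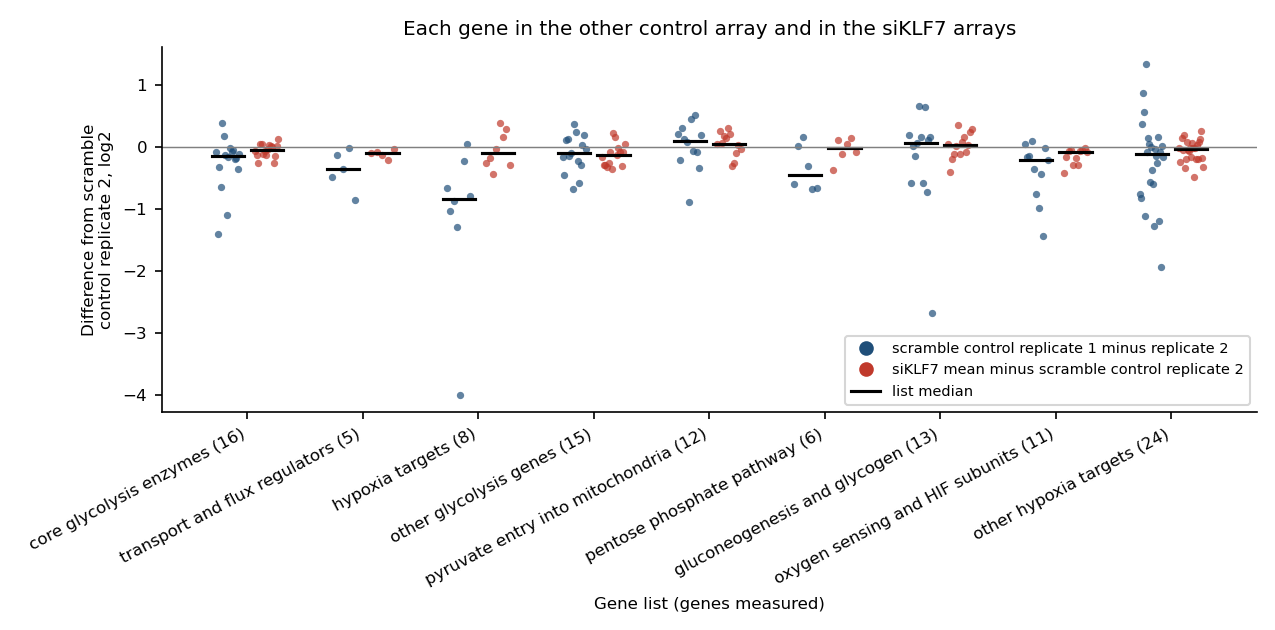
Log2 difference from control 2 of control 1 (left, blue) and of the siKLF7 mean (right, red) for every measured gene of 9 lists, with black bars for list medians and the number of genes in brackets. Hypoxia targets have medians of -0.84 in control 1 and -0.11 in siKLF7, and the gene near -4 in control 1 is EGLN3.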

How the data were processed

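The values deposited by the authors are linear array intensity values per probe set. Per the submitters' processing notes they come from Affymetrix Expression Console 1.1.1 with PLIER 2.0. Any normalization between arrays is not given in the sources used, so a difference in scale between arrays could shift every gene alike. Median deposited signals were 187, 194, 190.3 and 185 in control 1, control 2 and siKLF7 replicates 1 and 2.

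Of 33297 features, 19460 had 1 platform symbol, 1754 several and 12083 none. The feature of highest mean signal was kept for each of 18417 genes. Values were used as log2(signal + 16), which shrinks fold changes of dim genes, with no further normalization or filter. siKLF7 minus control was fitted in limma 3.58.1 (R 4.3.3; lmFit and eBayes with an intensity trend) over all genes, with Benjamini-Hochberg adjustment and a threshold of 0.05: with 4 arrays (2 residual degrees of freedom) and with each control alone (1). Precision is limited by having 2 arrays per group.

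The members and lists were chosen with earlier results of these data known. All measured members are named, and of every other list up to 3 genes by smallest p with 4 arrays and up to 3 against control 2, unless said otherwise. Promoters qualified by holding ACGTG and by smallest p against control 2, up to 4, and the hypoxia targets among these are printed.

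Tested on simulated data with log2 changes of 1 and 2 among 18417 genes, the 4-array fit recovered 6% and 59%, and each 3-array fit 100% of both under its own assumptions. Alternatives covered scaling (quantile, median centring), dropping the dimmest 25% of genes, pseudocounts of 1 and 64, averaging a gene's features, a prior without trend, a threshold of 0.10, a replicate block, and dropping each array in turn. Plots were made in matplotlib 3.10.9.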

Additional observations from a re-analysis of the deposited data

How the results depend on the processing

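Leaving out an array of the 4 moved the number of members passing from 0 to between 0 and 13, and of all genes from 0 to between 0 and 4928; the high counts came without control 1 (289 genes, 0 members) or without control 2 (4928 genes, 13 members). The median of the core enzymes ran from -0.056 to 0.061, of transport and flux genes from -0.10 to 0.22 and of hypoxia targets from -0.11 to 0.47. Against control 2, all genes passing were 479 with quantile normalization and 172 with no trend, against 289, and the cause was not tested. There 1 member, BNIP3, passed with quantile normalization, median centring, the dim genes left out, or an adjusted p under 0.10. The hypoxia median against control 2 was -0.074 with median centring, and against control 1 it was 0.43 with a pseudocount of 64, which shrinks differences of dim genes. Leaving out a siKLF7 array gave transport and flux medians of -0.17 to -0.088 against control 2 and core medians of 0.046 to 0.11 against control 1. Members passing against control 1 ranged from 9 to 15, and members with groups apart (alternative added after the data were seen) from 7 to 9. The HIF1A difference ranged from -0.48 to -0.36 against control 2 and from -0.52 to -0.40 against control 1 (alternatives also added later).

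With the replicate number as a block and 4 arrays, 0 members and 0 genes passed with limma, as without the block. The labels do not say that a number marks a shared culture, and the deviations of same-numbered arrays correlated at -0.04 across genes.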

Other observations

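Glycogen and glucose-6-phosphate genes were measured as side branches of glycolysis. PPP1R3C, which targets protein phosphatase 1 to glycogen, had signals of 254 in control 1, 1721 in control 2, and 2297 and 1918 in the siKLF7 arrays. Both knockdown arrays lay above both controls. PPP1R3C rose 7.83-fold against control 1 (log2 2.97, SE 0.15, limma adjusted p = 3.1e-31) and differed by 0.28 (SE 0.13, adjusted p = 0.35) from control 2. GBE1, the glycogen branching enzyme, rose by 0.67 (SE 0.17, adjusted p = 0.00087) against control 1 and differed by 0.08 (SE 0.16) from control 2. PCK2, the mitochondrial enzyme that makes phosphoenolpyruvate, lay between the controls, at -0.41 (SE 0.14, adjusted p = 0.15) from control 2 and 0.18 (SE 0.14) from control 1. SLC37A4, the glucose-6-phosphate transporter of the endoplasmic reticulum, differed by 0.34 (SE 0.15) from control 2 and -0.32 (SE 0.15) from control 1, and FBP1 by -0.19 (SE 0.16) and -0.21 (SE 0.16). Of 13 genes in this list, 8 had a positive and 5 a negative difference from control 2, where all genes had 7770 and 10647. Against control 1, 3 rose and 1 fell, which is 4 of 13 where 26.8% of all genes passed.

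The pentose phosphate pathway draws glucose 6-phosphate away from glycolysis to make NADPH and ribose. TKT, a transketolase abundant in cornea, had signals of 2803 in control 1, 4512 in control 2, and 5029 and 4927 in the siKLF7 arrays, above both controls. TKT rose by 0.83 (SE 0.09, adjusted p = 1.6e-12) against control 1 and differed by 0.14 (SE 0.09, adjusted p = 0.56) from control 2. PGD, which makes NADPH, had controls of 3450.2 and 3438 and knockdown arrays of 3723 and 3722, with differences of 0.11 (SE 0.10) from either control that did not pass. PGLS and RPIA differed by -0.38 (SE 0.17) and -0.13 (SE 0.16) from control 2. The 6 measured genes had a median difference of -0.02 from control 2 and 0.29 from control 1, where all genes had -0.04 and -0.06.

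Further glycolysis genes, mostly isozymes of other tissues, had a median log2 difference of -0.13 from control 2 over 15 genes, where all genes had -0.04. PGAM2, the muscle mutase, had signals of 296 and 269 in the controls and 207 and 214 in the siKLF7 arrays, below both controls. It fell by 0.46 (SE 0.16, adjusted p = 0.023) against control 1 and differed by -0.33 (SE 0.16, adjusted p = 0.42) from control 2. PGK2, LDHC and SLC2A2 differed by -0.30 (SE 0.16), -0.35 (SE 0.16) and -0.31 (SE 0.17) from control 2 without passing. PFKFB2, named after its value was seen, rose against control 1, where the list median was 0.0047 and that of all genes -0.06.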
